A study of Homo sapiens with 2 samples.

Results

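The genes described here are 7 human genes that give rise to microRNAs: the host genes MIR17HG, MIR22HG, MIR100HG, MIR155HG, MIR210HG and MIRLET7BHG, and MIR21, which is listed as the hairpin itself. They were taken from a list of names, 7 of 59098 RefSeq genes on chromosomes 1 to 22 and X, and every peak with at least 1 base from 1000 bp before to 1000 bp after each gene span was assigned to the gene. The data come from A549, a human lung cancer cell line, of wild-type genotype and with no treatment named in the labels. R-loops were profiled by CUT&Tag, in which an antibody tethers a transposase that cuts and tags the DNA around it. Of the 2 libraries of the series, 1 used S9.6, which recognises hybrids of RNA with DNA, and supplied the peak list described below. The other used IgG as a control antibody and was not analysed here.

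Each antibody had 1 library, so no value below has a replicate or a test, and intervals cover counting error only. Of 47810 deposited peaks, 45756 lay on chromosomes 1 to 22 and X. Each peak carries a total signal (column 4) and a maximum coverage (column 5), whose medians over these peaks were 986 and 2. Sequencing depth is unknown, and signal under the authors' threshold is not seen in a peak list. The list was not compared here with IgG or with RNase H treatment, and whether IgG served as control in calling the peaks is not known. Tagging that depends on hybrids was therefore not separated from tagging that does not.

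A microRNA is cut from a hairpin in a longer primary transcript, first in the nucleus by DROSHA with DGCR8 and then in the cytoplasm by DICER1, and the mature strand guides an Argonaute protein to messenger RNAs that pair with its seed. Many hairpins lie in long non-coding RNA (lncRNA) genes named as their hosts, and some, such as MIR21, lie inside a protein-coding gene. An R-loop forms where nascent RNA pairs again with its DNA template and leaves the other strand single, often near gene starts rich in G and C or where transcription ends.

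The spans of the 7 genes hold 18 microRNA genes, MIR21 included, with 33 different mature names in RefSeq (build GRCh38.p14). The mature strands below are the ones these genes are best known for. They are shown because the seed, bases 2 to 8 in capitals, tells which of the hosts encode microRNAs of 1 family. The first 6 come from MIR17HG, the next 4 from MIR21, MIR22HG, MIR155HG and MIR210HG in this order, and the last 4 from MIR100HG and MIRLET7BHG.
miR-17-5p: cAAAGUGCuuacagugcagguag
miR-20a-5p: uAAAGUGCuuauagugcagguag
miR-18a-5p: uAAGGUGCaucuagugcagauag
miR-19a-3p: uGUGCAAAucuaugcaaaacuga
miR-19b-3p: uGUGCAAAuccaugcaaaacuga
miR-92a-3p: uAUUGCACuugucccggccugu
miR-21-5p: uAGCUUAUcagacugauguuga
miR-22-3p: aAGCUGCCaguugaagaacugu
miR-155-5p: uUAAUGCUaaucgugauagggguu
miR-210-3p: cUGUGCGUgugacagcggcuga
miR-100-5p: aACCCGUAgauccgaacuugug
miR-125b-5p: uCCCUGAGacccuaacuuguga
let-7a-5p: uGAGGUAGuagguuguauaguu
let-7b-5p: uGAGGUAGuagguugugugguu
Among the 33 names there were 28 different seeds, and 5 seeds were held by more than 1 name. The seed AAAGUGC was common to miR-17-5p and miR-20a-5p, and GUGCAAA to miR-19a-3p and miR-19b-3p, all from MIR17HG. GAGGUAG, the let-7 seed, was the seed that joined 2 hosts: MIRLET7A2 in MIR100HG and MIRLET7A3 in MIRLET7BHG encode the same let-7a-5p, and MIRLET7B in MIRLET7BHG encodes let-7b-5p.

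S9.6 peaks were found at 5 of the 7 genes, 18 peaks in all. MIRLET7BHG, host of let-7a and let-7b hairpins, had 11 peaks, MIR100HG 3, MIR22HG 2, and MIR21 and MIR210HG 1 each. MIR17HG, host of the miR-17-92 cluster, and MIR155HG, host of a microRNA of activated immune cells, had none. The share of 71.4% (95% Wilson interval 35.9 to 91.8) stood beside 33.3% of all genes, 29.3% of lncRNA genes and 18.3% of 1911 microRNA genes with a peak in the same kind of window, and with 7 genes the lower bound of its interval comes close to the share of all genes. A peak within 1000 bp of either end of the span was present at 4 of the 7 genes, MIR21, MIR22HG, MIR210HG and MIRLET7BHG, against 22.5% of all genes and 18.2% of lncRNA genes.

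The height of the peaks ordered the genes differently from their number. The highest maximum coverage was 9 at MIR22HG and 8 at MIR21, followed by 4 at MIRLET7BHG, 3 at MIR210HG and 2 at MIR100HG. A maximum of at least 5 was reached at 2 of the 7 genes (28.6%, 95% Wilson interval 8.22 to 64.1). The interval takes in the 8.6% of all genes, and 5.46% of lncRNA genes and 4.76% of microRNA genes reached this maximum. For MIR21 the maximum rests on the flank. Of the 2100 bases of its peak, 312 lie in the window, and the highest coverage lies beyond it. Without a flank, or with a stricter overlap, MIR22HG was the 1 gene left. Of the 18 peaks, 4 had a maximum of 2, 8 of 3, 4 of 4, and 2 of 5 or more. In the whole list 45.4% of peaks reached 3 and 9.54% reached 5. Of the 18 peaks, 13 lay inside the gene span, 4 lay outside it within the flank, and 1 crossed a boundary of the span.

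**Figure D1:**
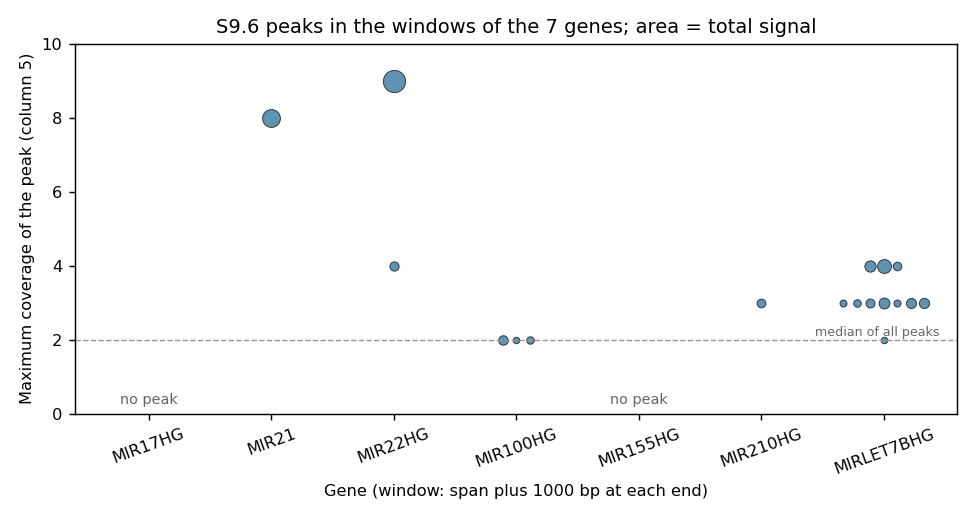
Maximum coverage (column 5, vertical axis) of each S9.6 peak in the window of each of the 7 genes (horizontal axis), 1 point per peak, with the point's area in proportion to the total signal. MIR22HG and MIR21 hold the 2 highest points, at 9 and 8, MIRLET7BHG holds 11 points between 2 and 4, and MIR17HG and MIR155HG hold none.

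MIR22HG, on the minus strand of chromosome 17 from 1711504 to 1716210, is the non-coding host of miR-22. Its peak over the start ran from 1714823 to 1717861, a width of 3039 bp, and reached a maximum coverage of 9 with 9138 of total signal. Of all peaks, 1.89% were as high and 0.179% as wide. This peak is shared by a head-to-head neighbour: WDR81, a protein-coding gene on the plus strand, begins at 1716523, 313 bp from the start of MIR22HG. The region of highest coverage, 1716478 to 1716582, contains the WDR81 start, and its middle lies 320 bp outside MIR22HG. The peak had 1388 bases inside MIR22HG and 1339 at or after the WDR81 start, so which of the genes the signal comes from cannot be told apart from the peak list.

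The second peak of MIR22HG, at 1710178 to 1710936, lay 568 bp beyond the gene's end, with a maximum of 4, a width of 759 bp and a total signal of 1595. It touches TLCD2, a protein-coding gene that spans 1702816 to 1710377. The miR-22 hairpin, MIR22 at 1713903 to 1713987, lay between both peaks and 836 bp from the nearer one. Of 3888 lncRNA genes with a span within 1.5 times that of MIR22HG, 24% had a peak and 233 had at least 2.

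MIR22HG was the member whose promoter lay under a peak, with all 300 bases of its RefSeq promoter window (250 bases before to 50 after the start) covered. It is printed here beside those of MIRLET7BHG and MIR210HG, which lay 114 and 258 bp from the nearest peak, and of MIR17HG, which is as rich in G and C but 8778 bp from one. The windows of MIR210HG and MIR17HG were picked after their values were seen. Each is from GRCh38.p14, written along the gene's own strand, with capitals for the motifs searched on both strands: the GC box GGGCGG, the CCAAT box, the TATA box searched as TATAAA, the AP-1 site TGAGTCA, the hypoxia response core ACGTG, and the E-box CACGTG, which contains that core.
MIR22HG chr17:1716161-1716460 (minus strand): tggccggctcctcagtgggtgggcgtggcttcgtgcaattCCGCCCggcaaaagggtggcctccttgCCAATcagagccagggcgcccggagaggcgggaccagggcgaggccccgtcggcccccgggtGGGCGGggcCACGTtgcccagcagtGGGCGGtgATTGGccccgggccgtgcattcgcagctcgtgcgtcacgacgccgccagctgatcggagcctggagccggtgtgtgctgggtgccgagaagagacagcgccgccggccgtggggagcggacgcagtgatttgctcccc
MIRLET7BHG chr22:46085747-46086046 (plus strand): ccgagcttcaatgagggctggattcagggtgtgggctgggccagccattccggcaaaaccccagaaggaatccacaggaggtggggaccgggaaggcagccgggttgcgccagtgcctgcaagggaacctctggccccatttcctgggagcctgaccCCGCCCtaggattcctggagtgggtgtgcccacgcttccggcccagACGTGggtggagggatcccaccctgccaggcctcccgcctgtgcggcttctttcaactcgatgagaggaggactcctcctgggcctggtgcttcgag
MIR210HG chr11:568408-568707 (minus strand): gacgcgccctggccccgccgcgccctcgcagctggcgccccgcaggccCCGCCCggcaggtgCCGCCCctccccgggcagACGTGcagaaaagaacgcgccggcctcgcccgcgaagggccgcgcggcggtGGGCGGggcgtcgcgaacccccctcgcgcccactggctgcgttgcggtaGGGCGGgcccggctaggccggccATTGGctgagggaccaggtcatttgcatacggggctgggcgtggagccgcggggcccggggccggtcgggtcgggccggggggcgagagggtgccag
MIR17HG chr13:91347437-91347736 (plus strand): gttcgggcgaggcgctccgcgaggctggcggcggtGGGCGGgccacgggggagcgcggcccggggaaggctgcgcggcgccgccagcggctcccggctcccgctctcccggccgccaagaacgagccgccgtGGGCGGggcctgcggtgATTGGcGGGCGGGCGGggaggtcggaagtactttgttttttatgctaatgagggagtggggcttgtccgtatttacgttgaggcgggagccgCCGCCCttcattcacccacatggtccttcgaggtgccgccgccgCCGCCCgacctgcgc
The MIR22HG window held 3 GC boxes, 2 CCAAT motifs and 1 ACGTG. The MIR17HG window held 6 GC boxes and 1 CCAAT, the MIR210HG window 4 GC boxes, 1 CCAAT and 1 ACGTG, and the MIRLET7BHG window 1 GC box and 1 ACGTG. Over all 34961 promoter windows, GGGCGG was present in 45%, CCAAT in 34.6%, ACGTG in 21.4%, TATAAA in 11.5%, CACGTG in 7.27% and TGAGTCA in 4.92%. These matches describe the letters in the windows and do not show that a factor binds.

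MIR21, on the plus strand of chromosome 17 from 59841266 to 59841337, encodes miR-21, a microRNA abundant in many carcinomas. It lies inside VMP1, a protein-coding gene for a membrane protein of autophagy, 918 bp before the VMP1 end. Its peak, from 59842026 to 59844125, began 689 bp after the hairpin and did not touch it. The peak was 2100 bp wide with a maximum of 8 and a total signal of 5877, and 2.61% of all peaks were as high and 0.66% as wide. It covered the last 230 bases of VMP1 and 1870 bases beyond, and its highest region began 745 bp past the VMP1 end.

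Further peaks followed downstream of MIR21, outside its window. They lay at 59845012 to 59845670 with a maximum of 3, at 59845962 to 59846940 with a maximum of 6, and at 59853351 to 59854128 with a maximum of 4. Upstream, the nearest peak was 5245 bp away inside VMP1, with a maximum of 2. The RefSeq entry of MIR21 covers the hairpin and not the primary transcript, which is known to run past it, so signal of the microRNA transcript and of the VMP1 end cannot be told apart here. Of 1755 other microRNA genes with a span within 1.5 times that of MIR21, 18.7% had a peak in the window.

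MIR210HG, on the minus strand of chromosome 11 from 565657 to 568457, hosts miR-210, a microRNA induced by low oxygen through HIF1A. Its single peak, at 567375 to 568150, lay inside the gene, was 776 bp wide and had a maximum of 3 and a total signal of 1423. The peak began 307 bp after the gene's start. It covered 62 of the 110 bases of the hairpin MIR210 (568089 to 568198), with all 22 bases of miR-210-3p and 1 base of miR-210-5p. Of 3088 lncRNA genes of similar span, 23.4% had a peak.

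**Figure D2:**
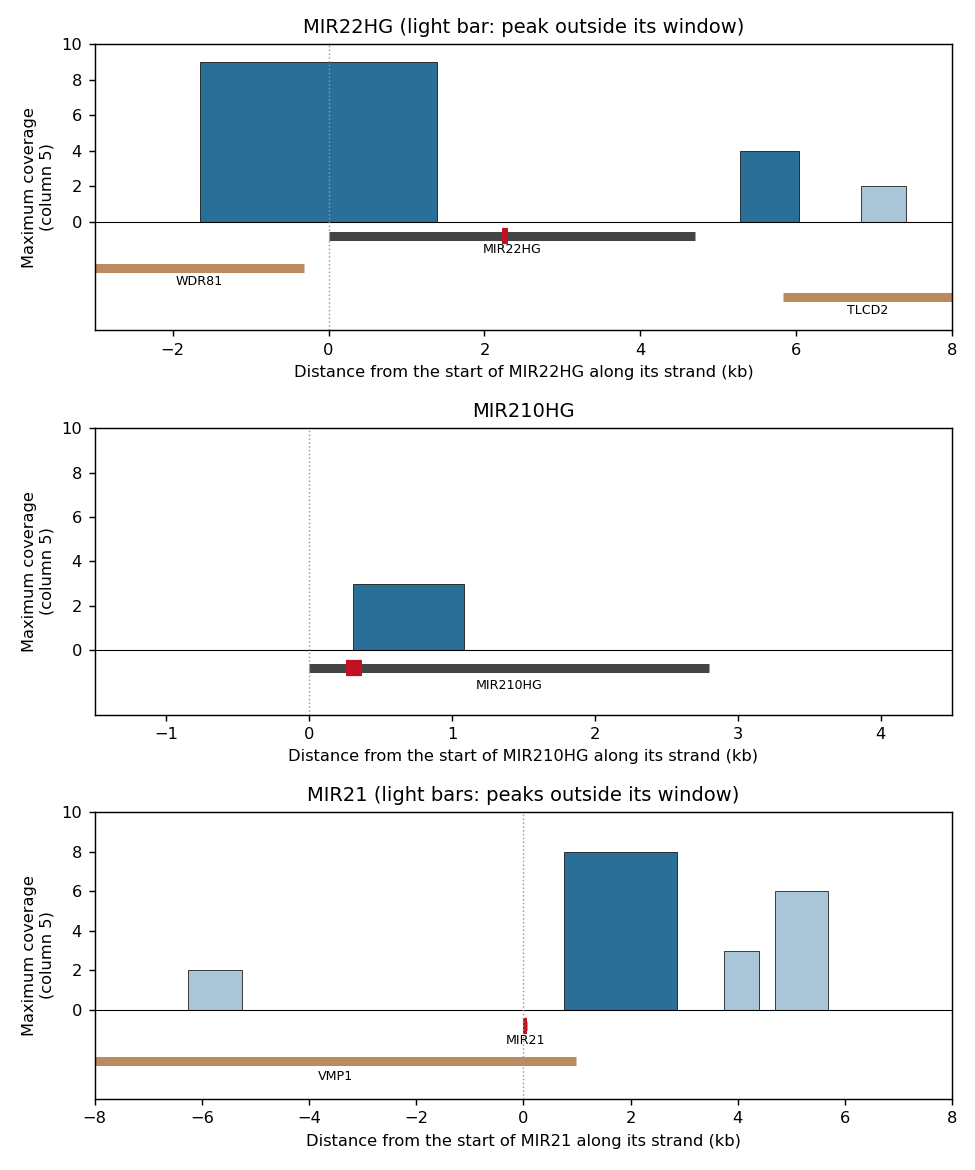
Maximum coverage (column 5) of S9.6 peaks against the distance in kb from the start of MIR22HG, MIR210HG and MIR21 along each gene's strand. Blue bars span each peak, light bars are peaks outside the 1000 bp window, black lines are the gene spans, red marks the hairpins and brown lines the neighbouring protein-coding genes. The peak of 9 covers the start of MIR22HG, that of 3 begins 307 bp inside MIR210HG, and that of 8 follows the MIR21 hairpin at the end of VMP1.

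MIRLET7BHG, on the plus strand of chromosome 22 from 46085997 to 46113928, had the most peaks of the 7 genes. Its 11 peaks covered 33.2% of the window, or 36.7 peaks per 100 kb, and the gaps between them ranged from 290 to 7520 bp with a median of 1216 bp. None was as high as the highest peaks of MIR22HG and MIR21: 1 had a maximum of 2, 7 of 3 and 3 of 4. Their median maximum was 3 against 2 over all peaks, and 90.9% of them reached 3 against 45.4%. Widths ranged from 466 to 1636 bp and total signals from 802 to 3550. Of the 11, 9 lay inside the span and 2 outside it in the flanks.

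The start of MIRLET7BHG itself was not under a peak. A peak with a maximum of 3 and a total signal of 910 ended at 46085633, 364 bp before the start, and the next, with a maximum of 4 and a total of 2359, began at 46086507. The 873 bases between them hold the start. The largest total signal, 3550, belonged to a peak in the body at 46094549 to 46096184, with a maximum of 4. The last peaks lay around the let-7b hairpin and the gene's end. The peak at 46113330 to 46113795 had a maximum of 2 and a total of 802, and the peak at 46114086 to 46115412 began 158 bp past the end with a maximum of 3.

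Other genes overlap MIRLET7BHG, so its peaks cannot be assigned to 1 transcript. LOC124905135, listed as protein-coding, spans 46044644 to 46113928 and was touched by 10 of the 11 peaks, and 1 of its RefSeq promoter windows is at the MIRLET7BHG start. LOC112268288, a lncRNA gene from 46086167 to 46097919, was touched by 5. The run of peaks went on past the window: 5 more lay within 20 kb upstream and 6 downstream, the highest of which, at 46116119 to 46117409, reached 5.

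Few genes had as many peaks in so short a window. Of 2950 other lncRNA genes with a span within 1.5 times that of MIRLET7BHG, 30.9% had a peak, the median number was 0, and 1 had 11. Of 4152 protein-coding genes in this range of span, 17 had at least 11. Over all classes, 7 genes had 11 or more in a window of at most 29932 bp, with MIRLET7BHG the 1 lncRNA gene among them. The surroundings were also rich in peaks, with 82 in the 500 kb on each side, both sides counted together.

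**Figure D3:**
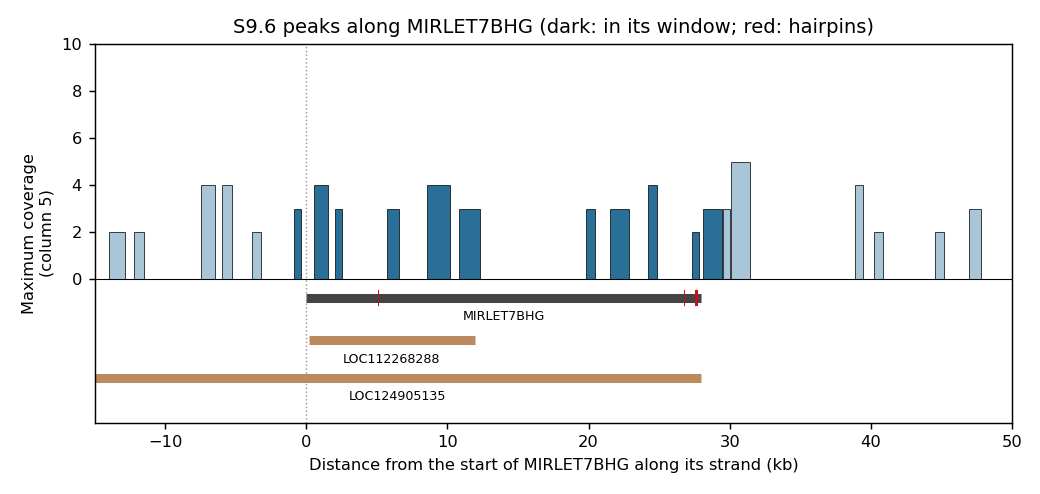
Maximum coverage (column 5) of S9.6 peaks against the distance in kb from the start of MIRLET7BHG, with dark bars for the 11 peaks in its window and light bars for peaks up to 20 kb further out. The black line is the gene, red marks its hairpins and brown lines are overlapping genes. The dark bars stand between 2 and 4, near both ends and in the body of the gene, where a gap of 7520 bp holds none. No bar covers the start at 0.

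MIR100HG, on the minus strand of chromosome 11 from 122028329 to 122422871, hosts miR-100, let-7a-2 and miR-125b-1 and is by far the longest member, with a span of 395 kb. Its 3 peaks all had a maximum of 2, which is both the median and close to the floor of the list, since 24955 peaks had a maximum of 2 and 18 of 1. They lay at 122227834 to 122229093 with a total signal of 1698, at 122242171 to 122242809 with 780, and at 122255554 to 122256122 with 1040. All 3 lay within 28.3 kb of each other in the gene body, far from either end and from the hairpins: MIR100 was 75526 bp from the nearest, MIR10526 75678 bp and MIR125B1 127990 bp. The nearest of its 6 RefSeq promoter windows was 53316 bp from a peak. At 0.757 peaks per 100 kb its density was close to the 0.7 of the 500 kb on each side. Of 199 lncRNA genes of similar span, 71.4% had a peak and 54 had at least 3.

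MIR17HG and MIR155HG had no peak from 1000 bp before to 1000 bp after their spans. MIR17HG, on the plus strand of chromosome 13 from 91347687 to 91354577, carries 6 hairpins within 787 bp and is a known MYC target amplified in some cancers. The nearest peak began 1937 bp after its end, just outside the window, at 91356514 to 91357236 with a maximum of 2 and a total signal of 768. On the other side the nearest was 281113 bp away. MIR155HG, on the plus strand of chromosome 21 from 25562145 to 25575168, had its nearest peak 32659 bp after the end, also with a maximum of 2. Of lncRNA genes of similar span, 25.3% had a peak for MIR17HG and 27.9% for MIR155HG, so a gene of that length without one was the commoner case.

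At the hairpins themselves, a peak overlapped 3 of the 18 microRNA genes, MIR210, MIRLET7B and MIR4763. This share of 16.7% (95% Wilson interval 5.84 to 39.2) stood beside 7.48% of all microRNA genes, which its interval takes in. MIRLET7B (46113686 to 46113768) and MIR4763 (46113566 to 46113657) lay whole under the same peak, which had a maximum of 2. Within 1000 bp, 7 of the 18 had a peak, against 18.3% of all microRNA genes: these 3, MIR21, MIR22, MIR3619 and MIRLET7A3. MIR3619 was 600 bp and MIRLET7A3 508 bp from the nearest peak. For MIRLET7A3 this is the peak over MIRLET7B and MIR4763, so 3 of the 7 rest on 1 peak. With the middle of the highest region, or most of the peak, required in the window, the count was 4. The other 11, the hairpins of MIR17HG, MIR100HG and MIR155HG, were 5123 to 127990 bp from one. Of the genes that carry the let-7 seed, MIRLET7B was overlapped, MIRLET7A3 was 508 bp from that peak and MIRLET7A2 in MIR100HG 81241 bp.

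Over all RefSeq promoter windows, those rich in G and C carried peaks more often than poor ones, and the windows of the members were spread over that range. A peak overlapped 21.8% of all 34961 windows and 12% of those of lncRNA genes, against 1 of the 11 windows of the members. Of these 11, 6 belong to MIR100HG, and MIR21 has no window. By GC content the share was 2.74% of windows under 50%, 17.9% from 50 to 60%, 36.9% from 60 to 70% and 34.7% at 70% or more. MIR210HG (80% GC, 44 CG pairs), MIR17HG (73%, 42) and MIR22HG (72.3%, 32) fell in the highest class, of which MIR22HG was overlapped. MIRLET7BHG had 65.3% and 13 CG pairs, MIR155HG 56% and 20, and the windows of MIR100HG 41.7 to 53%. The median window had 58.7% and 14.

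**Figure D4:**
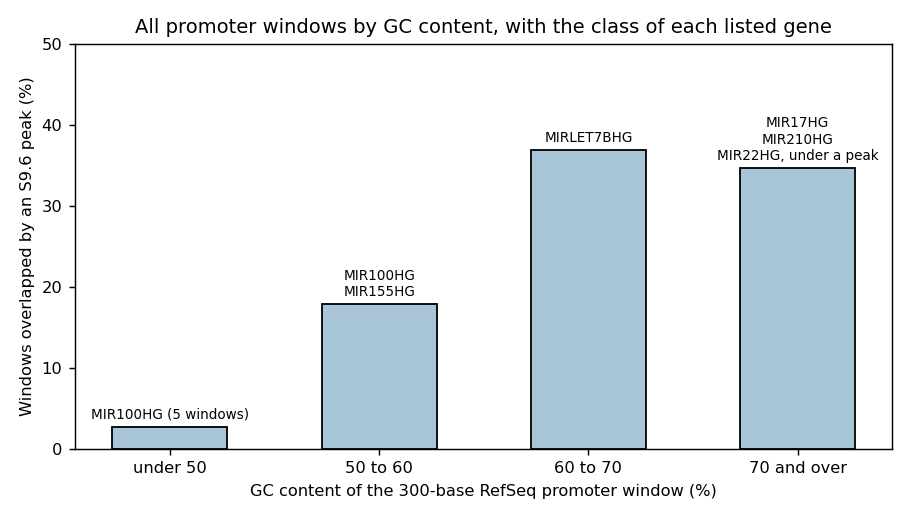
Share of all RefSeq promoter windows that an S9.6 peak overlaps (percent, vertical axis) by GC content of the window (horizontal axis), with the listed genes written above the class of their windows. MIR17HG, MIR210HG and MIR22HG share the class at 70% or more, where 34.7% of windows are overlapped, and MIR22HG is the member under a peak.

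The number of peaks around the genes differed widely. Peaks in the 500 kb on each side were counted for both sides together. There were 2 peaks for MIR17HG, 7 for MIR100HG, 9 for MIR155HG, 29 for MIR21, 56 for MIR22HG, 82 for MIRLET7BHG and 110 for MIR210HG, against a median of 12 over lncRNA genes (quartiles 5 and 28). The genes without a peak, and MIR100HG with its low ones, were the 3 with fewer than 10. Over all lncRNA genes, 16.5% had a peak where the surroundings held up to 9 peaks, 30.7% at 10 to 29, 47.1% at 30 to 79 and 66% at 80 or more. The part of the surroundings in the values of the members was not tested. MIR21, MIR22HG, MIR210HG and MIRLET7BHG had more peaks per 100 kb of window (48.3, 29.8, 20.8 and 36.7) than per 100 kb of surroundings (2.9, 5.6, 11 and 8.2), though a single peak gives a short window a high density.

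**Figure D5:**
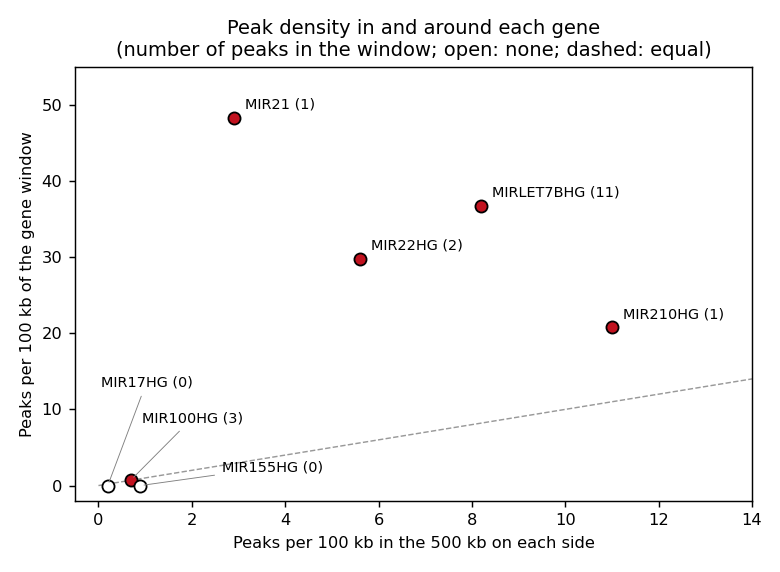
Peaks per 100 kb of each gene's window (vertical axis) against peaks per 100 kb in the 500 kb on each side (horizontal axis), 1 point per gene with the number of peaks in its window. MIR17HG, MIR100HG and MIR155HG sit below 1 on the horizontal axis and close to 0 on the vertical. MIR100HG lies almost on the dashed line of equal density (0.757 against 0.7), and the other 4 lie further above it.

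RefSeq names 81 other genes as microRNA hosts in the same way (MIR to HG), all lncRNA genes. Of these, 46 had a peak in the window (56.8%, 95% Wilson interval 45.9 to 67) and 26 at a boundary (32.1%), against 29.3% and 18.2% of lncRNA genes. Their median span was 19.8 kb against 9.08 kb over lncRNA genes, and those with a peak were longer (27.5 kb) than those without (14.3 kb), so length goes with the difference and its part was not tested. A maximum of at least 5 was reached by 5 of 81, 6.17% against 5.46% of lncRNA genes. These were MIR23AHG (10), the host of miR-23a, MIR497HG (8), MIRLET7A1HG (7), MIRLET7IHG (6) and MIR4453HG (5). MIR22HG, at 9, thus stood between the 2 highest of the others. MIR106AHG, MIR122HG and MIR124-1HG were the first in alphabetical order of the 35 without a peak. The most peaks were the 18 of MIR3667HG, over 243 kb. A density at or above that of MIRLET7BHG was found in 3 of the 81 and in 1.65% of lncRNA genes.

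A list was drawn up of 31 genes for proteins that make, use, regulate or degrade microRNAs or their precursors. Peaks were found at 20 of them (64.5%, 95% Wilson interval 46.9 to 78.9), against 60.4% of protein-coding genes. At a boundary there were 17 (54.8%, 37.8 to 70.8) against 40.1%, which the interval takes in. A maximum of at least 5 was reached by 13 (41.9%, 26.4 to 59.2) against 17.8%. The genes compared were not matched for span. NCBP1, the large subunit of the nuclear cap-binding complex, had the highest peak (10). TARBP2, the RNA-binding partner of DICER1, followed with 9, DDX5, a helicase of the DROSHA complex, with 8, and KHSRP, which binds let-7 precursors, with 7. AGO2, the Argonaute that cuts its targets, had 19 peaks over 122 kb with a maximum of 6, a value HSP90AA1, DDX17, PRKRA and TUT7 also reached. DGCR8 had a maximum of 5. No peak was listed at 11 genes, among them both cutting enzymes, DROSHA and DICER1, and the exporter XPO5. The others were AGO1, AGO4, LIN28A, NCBP2, SRSF3, TSN, TSNAX and TUT4.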

How the data were processed

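The S9.6 peak list of 1 library was deposited by the authors with 6 columns and, on its values, a whole-number total signal (column 4) and maximum coverage (column 5) per peak, not scaled to depth. Per the submitters' processing notes, the build was GRCh38 and the tools were SEACR 1.3, Bowtie2 2.4.2, fastp 0.23.2, deepTools 3.5.2, bedtools 2.30.0 and SAMtools 1.9. The list is described as the stringent set of peaks. Not given in the sources used here are the roles of the tools, the numeric threshold for peaks and whether IgG served as control. How duplicates or reads with several matches were handled is not given either. The layout is that of SEACR, which calls blocks of continuous coverage.

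Gene spans, classes, microRNAs and promoter windows came from RefSeq tables of GRCh38.p14, whose main chromosomes have the coordinates of GRCh38, and 7 of 7 names matched. The tables gave no exons. Positions are 1-based. A peak counted with at least 1 base in the span plus 1000 bp at each end. Overlaps were computed in Python 3.11.15 with numpy 2.4.6 and pandas 2.3.3, and the overlap routine was tested on simulated data. Shares carry 95% Wilson intervals (scipy 1.17.1). Members, lists and settings were chosen with earlier results of these data known. The text names every member, every microRNA gene in a member, every gene touched by a member's peak, and, by height, the first 5 other hosts and biogenesis genes. It also names all biogenesis genes and the first 3 hosts without a peak. Other names were chosen after their values were seen. The 6 alternatives changed the flank, the peaks used or the overlap that counts.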

Additional observations from a re-analysis of the deposited data

How the results depend on the processing

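The number of members with a peak, 5, was 4 to 6 over the 6 alternatives, while that of all genes, 19665 of 59098, was 13377 to 21115. MIR21 had none with a flank of 0 bp or under either stricter overlap (the middle of the highest region, or most of the peak, in the window), because its peak lies mostly past the flank. MIR100HG had none among peaks with a maximum of at least 3. MIR17HG gained 1, with a maximum of 2, when the flank was 2000 bp. MIR22HG kept 1 of its 2 peaks with a flank of 0 bp, where 1 member had a peak over the boundary base itself, in place of 4 near a boundary. The hosted microRNA genes with a peak fell from 7 to 3 with a flank of 0 bp and to 4 with either stricter overlap. The other host genes fell from 46 to 27 of 81 with a maximum of at least 3, where all genes fell from 19665 to 13377. Of 110 values, 99 stayed within 1.5 times the reported one. This tally is no measure of stability. It takes in member heights, listed only where a peak remained, and counts of 0 that stayed 0. No paired analysis was possible because each antibody had 1 library. Coverage was shallow, with a maximum of 2 in 4 of the 18 peaks and of 3 in 8, so height orders them coarsely.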

Other observations

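The relatives of these microRNAs elsewhere in the genome were examined after the values above were seen. Of the host genes related to MIR17HG, MIR106AHG on chromosome X had no peak either, and MIR106B, MIR93 and MIR25 had none within 1000 bp. The last 3 lie inside MCM7, a replication helicase gene whose window held 1 peak with a maximum of 8. The let-7 hosts MIRLET7A1HG and MIRLET7IHG had higher peaks, at 7 and 6, than MIRLET7BHG at 4, with 1 and 2 peaks in place of 11. MIR99AHG, which hosts relatives of miR-100, let-7a and miR-125b, had 2 peaks over 561 kb, each with a maximum of 2, beside 3 at MIR100HG over 395 kb. The related cluster of MIR99B, MIRLET7E and MIR125A on chromosome 19 had no peak within 1000 bp of any hairpin. MIR98, a let-7 family gene inside HUWE1, had none, while the window of HUWE1 held 4 the highest at 7.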
